A study of Mus musculus with 8 samples.

Results

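The genes described here build and equip the red cell. They comprise 7 transcription factors or cofactors of the erythroid lineage and 2 growth factor receptors of its progenitors. The rest are taken here as late red cell genes, though some are also made in progenitors or in other tissues. They serve the membrane skeleton, the cell surface, the cytosol, the mitochondria and a few other compartments. All were chosen by name. Of 36 listed genes, 35 matched a row among the 48440 genes of the count table. Ahsp is not analysed here.

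RNA was sequenced from whole livers of 8 neonatal CD1 mice killed at 3 to 8 days of age. The 4 knockout pups (animals 275 to 278) carried a germline deletion of Myo5b, the gene of the motor protein myosin Vb, which affects every cell type of the liver and the rest of the animal. The 4 controls (animals 279 to 282) were littermates that were heterozygous or wildtype, and the labels do not say which pup was which, nor give the age, sex or litter of each. Each library is a separate animal, so p-values weigh the difference between groups against the spread between these pups. A difference in age or litter between the groups, if there was one, cannot be told apart from genotype here.

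Library totals ran from 14228268 to 18398039 counts. Myo5b itself was 172, 144, 121 and 93.96 CPM (a gene's reads relative to the scaled total of its library) in controls 279 to 282 and 47.3, 43.1, 47.5 and 59.5 CPM in knockouts 275 to 278 (log2 fold change -1.43, SE 0.18, edgeR adjusted p = 3.14e-04). Which exons were deleted is not stated in the labels, and the Myo5b reads left in knockouts are therefore no measure of functional message. The hepatocyte markers of the tissue label were abundant in both groups, with 6 matched markers summing to 60555 to 71334 CPM in knockout and 88853 to 113160 CPM in control livers. Alb alone made up much of these sums, with a mean of 32558 CPM in knockouts and 68617 CPM in controls. All 35 members passed the filter on low counts, and the lowest count of any member in any library was 17 (Icam4 in knockouts 275 and 277).

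The liver is the main site of red cell production before birth, and islands of erythroblasts persist in it for some days afterwards. Progenitors depend first on the receptor KIT and then on the erythropoietin receptor. GATA1 works in complexes with TAL1, LMO2 and its cofactor FOG1 (encoded by Zfpm1), KLF1 switches on globin and membrane genes, and GFI1B represses the progenitor programme. As erythroblasts mature they assemble a spectrin and ankyrin skeleton under the membrane, anchored to the anion exchanger band 3, and lose their nucleus and organelles. In whole-liver RNA, fewer cells of a type and less RNA per cell cannot be told apart.

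Short sequences near the start sites are shown because GATA1 and KLF1 are known to bind letters of this kind. Promoters of RefSeq (build GRCm38.p6) matched 25 of the 35 members, with 31 start sites in all. The 250 bases before each start were searched on both strands for a GATA set (any of the motif AGATAA, the motif AGATAG, the motif TGATAA and the motif TGATAG) and for the CACCC-like pattern CCNCNCCC. This pattern also takes in runs that hold no CACCC on either strand, as all its matches in the Gfi1b and Kit windows printed below do. Overlapping matches were counted separately, and a match of one kind can share an end base with one of the other. The GATA set occurred in 16 of 31 member windows (51.6%), against 26.5% of all 32851 windows of that length. CCNCNCCC occurred in 20 of 31 (64.5%), against 45.9% of all windows. Both were found in 7 of 31 (22.6%), against 8.19%. Some of the 31 windows belong to the same gene, and those of Kit overlap, so they are not separate units. Counted by gene, 16 of 25 had a GATA match and 17 of 25 a CCNCNCCC match, with no such share counted over all genes. A full-length NFE2 motif, also searched, was found in 0 of 31 and in 0.134% of all windows. A match is a run of letters and not a measured binding site. The members were chosen as erythroid genes, and a link between these letters and the levels in knockout livers was not tested.

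The 6 windows printed here belong to regulators and to a surface gene whose values follow. Each is the longest stretch free of annotated exons within the 250 bases before a RefSeq start. They run 5′ to 3′ on the gene's strand and carry the matched letters in capitals. The Gata1 window lies inside the annotated span of its gene, and the Epor window ends short of the annotated gene. The Klf1 window (chr8:84901732-84901927, plus strand, 196 bases) and the Rhd window (chr4:134864286-134864535, plus strand, 250 bases) each hold 1 GATA match, whose first base lies 80 and 43 bases before the RefSeq start. The Gfi1b window (chr2:28621983-28622232, minus strand, 250 bases) has a GATA match 120 bases before the start and 2 CCNCNCCC matches. The Epor window (chr9:21963577-21963826, minus strand, 250 bases) has a GATA match 54 bases before the start and 4 CCNCNCCC matches in 2 overlapping pairs. The Gata1 window (chrX:7967911-7968160, minus strand, 250 bases) and the Kit window (chr5:75574737-75574915, plus strand, 179 bases) hold 3 and 2 CCNCNCCC matches and no GATA match, which says only that these letters are not in these windows.
Klf1: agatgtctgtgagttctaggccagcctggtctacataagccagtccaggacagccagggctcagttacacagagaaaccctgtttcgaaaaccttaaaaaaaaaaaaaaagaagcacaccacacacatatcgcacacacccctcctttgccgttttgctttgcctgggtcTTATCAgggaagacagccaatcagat
Rhd: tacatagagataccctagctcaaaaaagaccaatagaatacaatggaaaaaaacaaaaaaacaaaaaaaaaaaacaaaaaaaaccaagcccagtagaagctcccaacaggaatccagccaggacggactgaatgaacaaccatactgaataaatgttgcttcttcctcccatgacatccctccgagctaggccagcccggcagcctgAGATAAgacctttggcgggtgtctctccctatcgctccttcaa
Gfi1b: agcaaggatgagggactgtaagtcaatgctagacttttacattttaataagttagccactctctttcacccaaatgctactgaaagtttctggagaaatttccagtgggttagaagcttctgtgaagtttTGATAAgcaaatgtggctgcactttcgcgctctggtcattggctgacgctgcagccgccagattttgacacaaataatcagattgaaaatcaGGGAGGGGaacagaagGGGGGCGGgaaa
Epor: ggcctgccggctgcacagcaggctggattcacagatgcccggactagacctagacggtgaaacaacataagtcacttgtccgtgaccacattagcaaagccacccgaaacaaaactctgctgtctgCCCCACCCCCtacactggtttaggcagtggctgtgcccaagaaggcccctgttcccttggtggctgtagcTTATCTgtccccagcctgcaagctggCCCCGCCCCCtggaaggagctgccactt
Gata1: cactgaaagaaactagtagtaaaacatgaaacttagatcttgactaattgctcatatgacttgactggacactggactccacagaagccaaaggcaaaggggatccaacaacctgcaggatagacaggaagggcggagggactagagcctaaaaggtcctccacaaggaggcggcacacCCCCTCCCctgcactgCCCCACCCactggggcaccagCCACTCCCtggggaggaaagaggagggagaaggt
Kit: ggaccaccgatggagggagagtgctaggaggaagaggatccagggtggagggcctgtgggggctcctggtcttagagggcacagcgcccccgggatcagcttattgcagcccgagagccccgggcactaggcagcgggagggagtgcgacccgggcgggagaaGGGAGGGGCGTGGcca

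Nearly all of the 35 members were lower in the knockout livers, and the exceptions among them were the progenitor receptor gene Kit, which rose, and the carbonic anhydrase gene Car1, which did not pass the test. Of 35 members, 33 fell (94.3%), while 11.4% of all 18274 genes tested were called lower. Kit was the 1 member called higher, against 9.27% of all genes. Of the 33, 29 fell more than 2-fold, as did 3.68% of all genes, and 7 fell more than 4-fold (0.613% of all genes). The count past 4-fold turned on single livers: it was 3, 4 and 20 without knockouts 275, 277 and 278, and 4, 15, 11 and 4 without controls 279 to 282. It was 4 with library size alone as the scaling, 13 with a covariate for Y-linked expression and 19 with limma-voom. The median log2 fold change of the members was -1.84, against 0.0093 over all genes tested. In 33 members every knockout value lay below every control value, which was so for 12.8% of all genes. Together the members took 0.127%, 0.163%, 0.134% and 0.223% of counts in knockouts 275 to 278 and 0.511%, 0.374%, 0.416% and 0.535% in controls 279 to 282. Calls rest on edgeR's quasi-likelihood test with an adjusted p under 0.05.

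**Figure D1:**
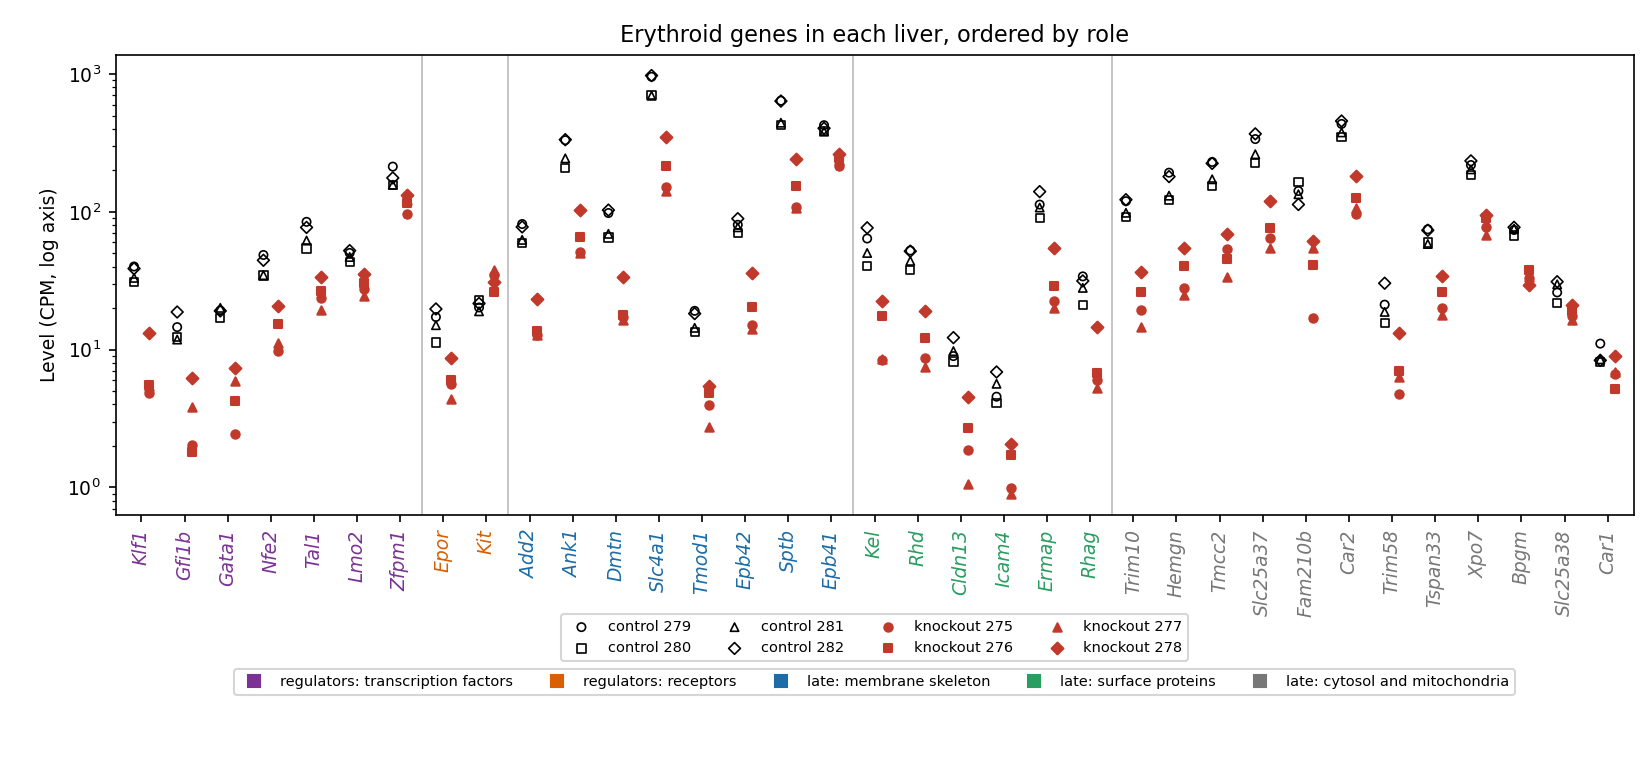
Level in CPM (log axis) of each of the 35 erythroid genes in the 4 control livers (open black symbols) and 4 knockout livers (filled red symbols), 1 symbol per liver, with genes grouped by role. Red symbols lie below black ones for 33 genes, above them for Kit, and among them for Car1, and knockout 278 (red diamonds) is the highest knockout for 33 of the 35.

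Among the 7 transcription factors and cofactors all fell, but by amounts that ranged from -2.31 to -0.59 on the log2 scale. Klf1 (chromosome 8, 84901928 to 84905291, GRCm38), the Krüppel-like factor that activates adult globin and membrane genes, had the largest fall of any member. Its level was 40.1, 30.8, 33.1 and 38.7 CPM in controls 279 to 282 and 4.81, 5.56, 5.42 and 13.1 CPM in knockouts 275 to 278 (log2 fold change -2.31, SE 0.31, edgeR adjusted p = 8.16e-04). The 3 lowest knockouts lay close together and knockout 278 stood above them, still well under every control. Gfi1b, the repressor needed for erythroid and megakaryocytic maturation, went from 14.5, 12.3, 11.8 and 18.7 CPM to 2.03, 1.79, 3.84 and 6.25 CPM (log2 fold change -2.04, SE 0.35, edgeR adjusted p = 0.00166). Gata1 (chromosome X, 7959260 to 7978071), the lineage's master regulator, was 19.2, 16.9, 20.1 and 19.1 CPM in controls and 2.44, 4.22, 5.9 and 7.28 CPM in knockouts (log2 fold change -1.92, SE 0.25, edgeR adjusted p = 7.30e-05). Its control values spanned a narrow range while the knockouts were more spread, with animal 275 lowest.

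Nfe2 and Tal1 formed a middle group. Nfe2, the p45 subunit of a factor that binds globin control regions, was 48.6, 34.4, 34.7 and 44.5 CPM in controls and 9.8, 15.4, 11.1 and 20.6 CPM in knockouts (log2 fold change -1.51, SE 0.22, edgeR adjusted p = 6.49e-04). For Tal1 (chromosome 4, 115056426 to 115071755), a basic helix-loop-helix factor that binds beside GATA1, the values were 84.5, 54.2, 61.8 and 76.99 against 23.5, 26.5, 19.4 and 33.9 CPM (log2 fold change -1.43, SE 0.18, edgeR adjusted p = 2.30e-04). Both genes had groups that did not overlap. Lmo2 and Zfpm1 fell least. Lmo2, the bridging protein of the complex, was 50.3, 43.1, 46.96 and 52.2 CPM in controls and 27.3, 30.5, 24.5 and 35.5 CPM in knockouts (log2 fold change -0.71, SE 0.12, edgeR adjusted p = 4.14e-04). Zfpm1, which encodes the GATA1 cofactor FOG1, was 213, 157, 157 and 176 CPM in controls and 96.00, 115, 123 and 132 CPM in knockouts (log2 fold change -0.59, SE 0.11, edgeR adjusted p = 0.00138). The knockout mean was 61.2% of the control mean for Lmo2 and 66.2% for Zfpm1, compared with 20.3% for Klf1. TAL1 and LMO2 are also made by endothelial cells and megakaryocytes. In these livers 6 of 7 endothelial markers rose (median log2 fold change 0.42), with the smallest p for Pecam1 (0.54 (SE 0.098)) and Kdr (0.42 (SE 0.078)). Of 10 megakaryocyte markers, 4 fell and none rose, with a median of -0.61, and Ppbp (-0.94 (SE 0.21)) and Pf4 (-0.64 (SE 0.17)) had the smallest p. The part of these cells in the Tal1 and Lmo2 values was not tested.

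The 2 receptors moved in opposite directions. Epor (chromosome 9, 21958897 to 21963506), the erythropoietin receptor that keeps committed progenitors alive, was 17.2, 11.3, 15.02 and 19.7 CPM in controls 279 to 282 and 5.63, 6.01, 4.37 and 8.74 CPM in knockouts 275 to 278 (log2 fold change -1.35, SE 0.22, edgeR adjusted p = 3.02e-04). Kit (chromosome 5, 75574916 to 75656722), the stem cell factor receptor of earlier progenitors, was 20.2, 22.8, 18.9 and 21.6 CPM in controls and 34.9, 26.01, 37.7 and 31.1 CPM in knockouts (log2 fold change 0.64, SE 0.13, edgeR adjusted p = 0.00193). All 4 knockouts thus lay above all 4 controls for Kit, which was so for 10.8% of all genes, and the call held under each of the 18 alternatives. KIT is also carried by mast cells, by blood stem cells and by some endothelial cells of the liver. Of 7 mast cell markers 6 were too scarce to test, with group means of at most 0.592 CPM (Cpa3 in controls) and Fcer1a at 0 counts in every knockout. Hdc, the only one tested, did not pass (0.25 (SE 0.22), edgeR adjusted p = 0.482). Summed over the list, mast cell markers were 14.8 to 23.2 CPM in knockout and 11.2 to 22.6 CPM in control livers. Nearly all of that sum was Hdc (mean 15.1 CPM in controls and 18.0 in knockouts), and it therefore says little of the other 6. Of 8 stem and early progenitor markers, 1 fell and none rose (median 0.07). The one that fell was Hlf (-0.62 (SE 0.14)), and Slamf1 was -0.70 (SE 0.36) without passing. Those 8 summed to 104 to 145 CPM in knockout and 114 to 164 CPM in control livers. Most of that sum was Mpo (mean 63.7 CPM in controls and 71.0 in knockouts) and Hlf (40.3 and 26.3), so it says little of the scarcer markers. Endothelial markers, given above, were higher in the same livers and summed to 993 to 1183 CPM in knockout and 799 to 860.0 CPM in control livers, and their part in the rise of Kit was not tested.

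All 8 membrane skeleton genes fell, 7 of them by close to 4-fold. Slc4a1 (chromosome 11, 102348824 to 102366203) encodes band 3, the anion exchanger to which the skeleton is anchored. It was 955, 704, 695 and 976 CPM in controls and 152, 213, 142 and 352 CPM in knockouts (log2 fold change -1.96, SE 0.34, edgeR adjusted p = 0.008). Controls 279 and 282 were the high pair, and knockout 278 reached about 2.08 times the mean of the other knockouts. Ank1, the ankyrin that ties band 3 to spectrin, went from 331, 207, 244 and 334 CPM to 51.1, 66.1, 50.4 and 102 CPM (log2 fold change -2.05, SE 0.29, edgeR adjusted p = 0.00334). Sptb, the beta chain of erythroid spectrin, was 640.5, 429, 443 and 636 CPM in controls and 108, 153, 107 and 242 CPM in knockouts (log2 fold change -1.82, SE 0.32, edgeR adjusted p = 0.00909). The same pair of controls was again highest for both.

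Add2, the beta adducin that caps actin at the spectrin junctions, fell furthest in this class. Its level was 81.5, 59.1, 62.5 and 77.6 CPM in controls and 12.6, 13.6, 12.8 and 23.4 CPM in knockouts (log2 fold change -2.17, SE 0.21, edgeR adjusted p = 4.72e-05), with 3 knockouts almost equal and knockout 278 apart. Dmtn (dematin, an actin bundler) had a log2 fold change of -1.98 (SE 0.29), Tmod1 (tropomodulin, which caps the slow end of actin) -1.94 (SE 0.21) and Epb42 (protein 4.2, which stabilises the band 3 complex) -1.89 (SE 0.30). Their edgeR adjusted p values were 0.00259, 8.03e-06 and 0.00447. Exons of Tstd2 on the opposite strand overlap 32.6% of the exon bases of Tmod1, and the strand setting of the counting is not given in the sources used here. Epb41, protein 4.1, which many tissues make, changed least, from 425, 385, 382 and 404 CPM to 214, 246, 239 and 263 CPM (log2 fold change -0.73, SE 0.084, edgeR adjusted p = 1.23e-05). The groups did not overlap for it either.

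All 6 genes of red cell surface proteins fell within a narrow band, from -2.02 for Kel to -1.82 for Rhag. Rhag, the glycoprotein that carries the Rh complex to the membrane, was 33.96, 21.1, 28.02 and 31.5 CPM in controls and 5.97, 6.77, 5.21 and 14.5 CPM in knockouts (log2 fold change -1.82, SE 0.32, edgeR adjusted p = 0.00426). Its partner Rhd (chromosome 4, 134864536 to 134896172), the Rh antigen gene, was 52.3, 37.7, 43.99 and 51.7 CPM in controls and 8.64, 12.1, 7.48 and 18.9 CPM in knockouts (log2 fold change -1.98, SE 0.28, edgeR adjusted p = 0.00117). Kel, the Kell blood group metalloprotease, went from 63.96, 40.4, 50.2 and 76.5 CPM to 8.41, 17.4, 8.53 and 22.6 CPM (log2 fold change -2.02, SE 0.40, edgeR adjusted p = 0.013). Its control values were among the most spread of all members, the highest being 1.89 times the lowest. Ermap, an immunoglobulin-like protein of the red cell membrane, had a log2 fold change of -1.84 (SE 0.35). Cldn13, a claudin of the mouse erythroid lineage, had -1.96 (SE 0.34). Icam4, an adhesion molecule by which erythroblasts bind macrophages, had -1.90 (SE 0.33). Icam4 had the fewest reads of any member before correction for length, at 4.55, 4.09, 5.64 and 6.87 CPM in controls and 0.986, 1.73, 0.895 and 2.06 CPM in knockouts, and the antisense gene Gm47079 covers 100% of its exon bases, so its reads cannot be assigned to a strand here. Erythroblasts mature around macrophages, and 8 of 9 macrophage markers rose in the same knockout livers (median 0.87), with the smallest p for Mpeg1 (1.17 (SE 0.099)) and Marco (0.94 (SE 0.083)).

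Of the 12 late genes grouped under cytosol and mitochondria, 11 fell. The grouping is loose, since it also holds nuclear and membrane proteins such as Hemgn, Xpo7, Tmcc2 and Tspan33. Trim10 and Hemgn fell most. Trim10, a RING finger protein of terminal erythroid differentiation, was 119, 91.6, 98.3 and 122 CPM in controls and 19.5, 26.1, 14.6 and 36.3 CPM in knockouts (log2 fold change -2.16, SE 0.28, edgeR adjusted p = 0.00163). Hemgn, the nuclear protein hemogen of blood progenitors, was 192, 122, 131 and 180.1 CPM in controls and 27.9, 40.3, 25.1 and 54.6 CPM in knockouts (log2 fold change -2.08, SE 0.30, edgeR adjusted p = 0.00327). The groups lay well apart for both genes. Slc25a37, mitoferrin 1, which brings iron into mitochondria for heme, went from 337, 225, 262 and 368 CPM to 65.03, 75.9, 54.3 and 120.5 CPM (log2 fold change -1.92, SE 0.30, edgeR adjusted p = 0.0046). The mitochondrial glycine carrier of the same pathway, Slc25a38, changed much less, with 25.98, 21.7, 29.7 and 31.1 CPM in controls and 17.6, 19.2, 16.5 and 21.1 CPM in knockouts (log2 fold change -0.54, SE 0.14, edgeR adjusted p = 0.00875). For Slc25a38 the highest knockout (animal 278) and the lowest control (animal 280) nearly met.

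Tmcc2, a transmembrane and coiled-coil protein, had a log2 fold change of -1.96 (SE 0.24), and Tspan33, a tetraspanin of erythroblasts, -1.44 (SE 0.19). Trim58, a ubiquitin ligase that acts on dynein during nuclear loss, had -1.45 (SE 0.32). Xpo7, a nuclear exportin of maturing erythroblasts, was 218, 185, 203 and 234 CPM in controls and 76.98, 89.5, 67.5 and 94.9 CPM in knockouts (log2 fold change -1.35, SE 0.11, edgeR adjusted p = 6.39e-07). Bpgm makes 2,3-bisphosphoglycerate, which lowers the oxygen affinity of hemoglobin. It was 73.8, 67.1, 75.5 and 77.1 CPM in controls and 32.9, 37.5, 33.5 and 29.4 CPM in knockouts (log2 fold change -1.14, SE 0.096, edgeR adjusted p = 8.51e-07). These 2 genes had the smallest p values of all members. Fam210b, a mitochondrial protein of erythroid iron use, was 142, 165, 134 and 113 CPM in controls and 17.1, 41.2, 54.4 and 61.5 CPM in knockouts (log2 fold change -1.67, SE 0.39, edgeR adjusted p = 0.0281). Knockout 275 was far below the others for it, and the call was lost in 8 of the 18 alternatives.

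The 2 carbonic anhydrases, enzymes that hydrate carbon dioxide in red cells, differed from each other. Car2 was 434, 349, 377 and 456 CPM in controls and 96.99, 126, 107 and 183 CPM in knockouts (log2 fold change -1.65, SE 0.20, edgeR adjusted p = 5.14e-04). Car1, which lies near it on chromosome 3, was 11.04, 8.11, 8.49 and 8.34 CPM in controls and 6.67, 5.18, 6.85 and 8.98 CPM in knockouts (log2 fold change -0.38, SE 0.20, edgeR adjusted p = 0.21). Knockout 278 lay above 3 of the 4 controls for Car1, so the groups overlapped.

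**Figure D2:**
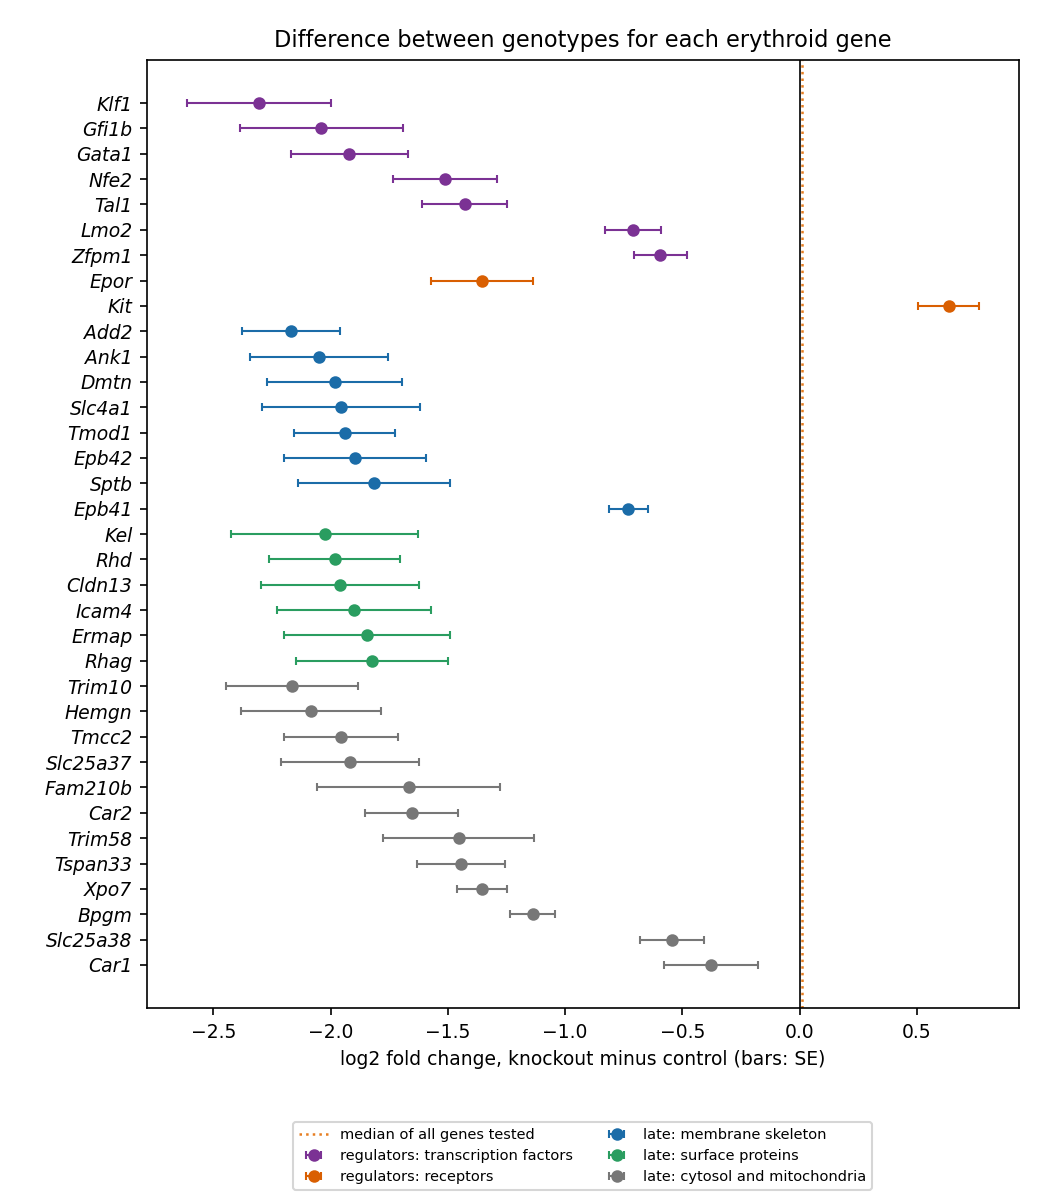
Log2 fold change, knockout minus control, of each erythroid gene (points) with its SE (bars), grouped and coloured by role, with the median of all genes tested (0.0093) as a dotted line. Kit lies to the right of 0 at 0.64, and Car1, Slc25a38, Zfpm1, Lmo2 and Epb41 lie nearest 0 among the lower values.

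The contrast of early and late genes was one of degree for most members. The 9 regulators had a median log2 fold change of -1.43 (8 fell and Kit rose), and the 26 late genes one of -1.90 (25 fell), a difference of -0.47 between medians. For a narrower set of 5, taken as acting from the progenitor stage onwards (Kit, Tal1, Lmo2, Zfpm1 and Gfi1b), the median was -0.71. Of these, 4 fell and 1 rose, and the median was -1.19 apart from the late genes. The set was chosen with earlier results known. It leaves out Klf1 (-2.31), Gata1 (-1.92), Nfe2 (-1.51) and Epor (-1.35), so the wider gap depends on that choice. Within each library the mean log2 CPM of late genes minus that of the 9 regulators was 0.79, 0.97, 0.49 and 0.87 in knockouts 275 to 278. In controls 279 to 282 it was 1.22, 1.16, 1.23 and 1.27. The knockout mean was 0.78 ± 0.21 and the control mean 1.22 ± 0.045 (SD, n = 4). Late genes thus stood less far above the 9 regulators in each knockout than in any control. That separation depended on the 2 receptors being included. With the 7 transcription factors alone, the gap was wider in knockout 276 than in control 280. Mean log2 CPM of factors and late genes was 3.72 and 4.67 in knockout 276, and 5.18 and 6.09 in control 280. The difference between early and late members, which were chosen genes, was not tested.

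Roles did not split cleanly. Klf1, Gfi1b and Gata1 fell as far as the late membrane genes (-2.31, -2.04 and -1.92), and the late genes Epb41 (-0.73), Slc25a38 (-0.54) and Car1 (-0.38) had small values like those of Lmo2 and Zfpm1. The surface proteins were the most uniform class, with a median of -1.93 and a range of -2.02 to -1.82. The membrane skeleton had a median of -1.95, the loose group under cytosol and mitochondria -1.55, and the transcription factors -1.51.

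**Figure D3:**
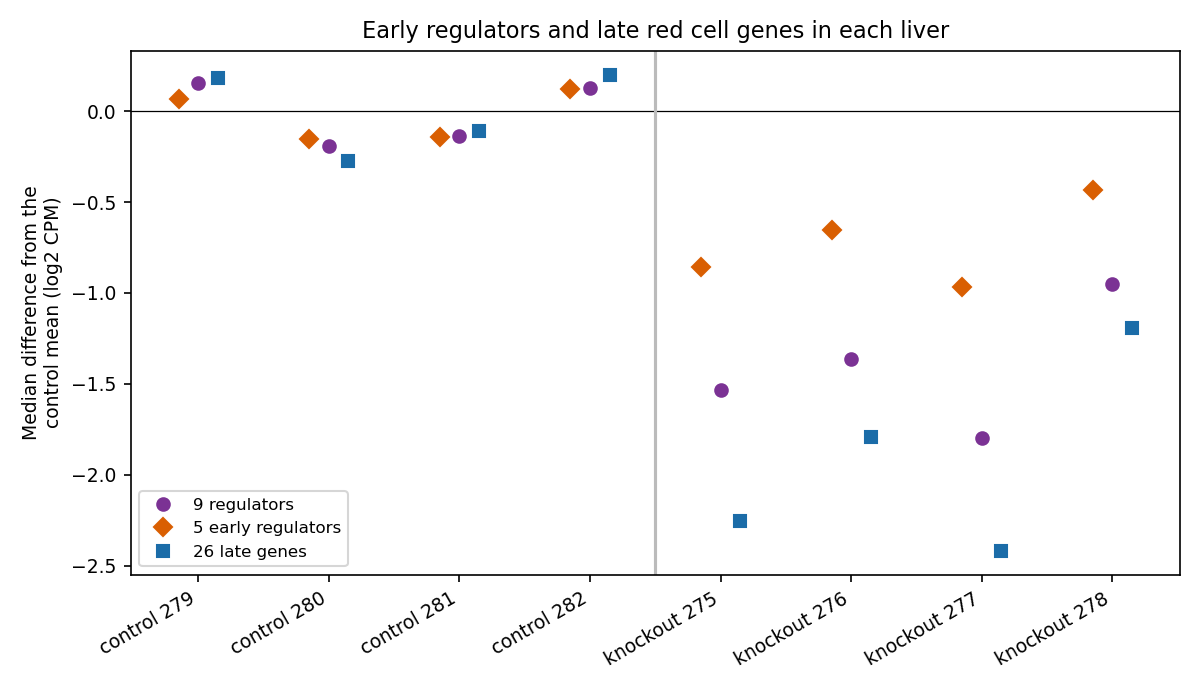
Median difference from the control mean (log2 CPM) over the 9 regulators (circles), the 5 early regulators (diamonds) and the 26 late genes (squares) in each of the 8 livers. In each knockout the late genes lie lowest and the early regulators highest, and knockout 278 is nearest the controls for all 3 groups.

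The livers of a group kept much the same order from gene to gene. Knockout 278 was the highest knockout for 33 of 35 members, the exceptions being Kit and Bpgm. Knockout 277 was the lowest for 21 and knockout 275 for 10. Among controls, animal 282 was highest for 18 members and animal 279 for 14, while animal 280 was lowest for 29. The level in knockout 278 divided by the mean of the other 3 knockouts had a median of 1.74 over the members and exceeded 1.5 for 25 of them. The ratio was largest for Klf1 (2.49), Gfi1b (2.45), Rhag (2.42) and Cldn13 (2.41). It was lowest for Bpgm (0.849), Kit (0.946), Epb41 (1.13), Zfpm1 (1.18), Slc25a38 (1.19), Xpo7 (1.22) and Lmo2 (1.29). All of these but Xpo7 were among the 7 members that differed least between genotypes. Without knockout 278 the medians were -1.59 for regulators and -2.17 for late genes, and 33 members were again called lower. These members share libraries and cells, so the common order is a description of the livers and not evidence from independent genes.

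Levels of different genes were compared per kilobase of exon. In controls Slc4a1 (170.2 ± 31.4 CPM per kb, SD, n = 4) and Car2 (167 ± 20.4) stood highest and did not differ beyond their spread. Hemgn (62.3 ± 13.9), Zfpm1 (50.1 ± 7.54), Slc25a37 (49.5 ± 10.9), Trim10 (48.1 ± 6.8) and Sptb (44.2 ± 9.64) came next, again with overlapping spreads. Kit was the lowest of the 35 at 2.34 ± 0.188 CPM per kb. In knockouts Car2 (53.01 ± 15.9) and Slc4a1 (43.9 ± 19.8) remained the top pair. Zfpm1 (33.2 ± 4.32) and Epb41 (15.1 ± 1.28) came next, Epb41 having held rank 11 in controls. Kit, at 3.64 ± 0.567, moved from rank 35 to rank 25, and Klf1, from 23.3 ± 2.9 to 4.72 ± 2.57, from rank 12 to rank 21. Lmo2 went from rank 13 to rank 6.

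**Figure D4:**
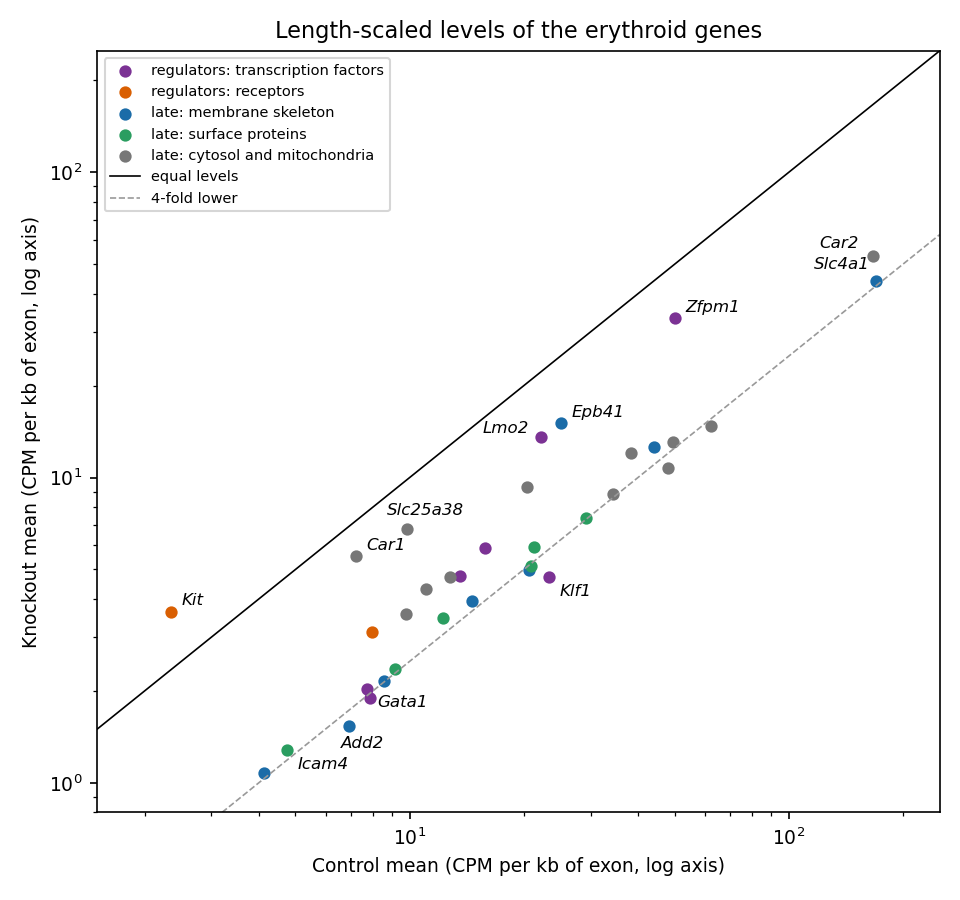
Mean level per kilobase of exon (CPM per kb, log axes) in controls (horizontal) and knockouts (vertical), 1 point per gene, coloured by role, with lines for equal levels and for a 4-fold lower level. Kit lies above the line of equality and 7 genes lie past the 4-fold line. All others lie between the lines, many of them near the 4-fold line over the whole range of levels. Zfpm1, Lmo2, Epb41, Slc25a38 and Car1 lie nearest equality among these.

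Other genes of the red cell were read from fixed lists. Of 15 further red cell membrane genes, 9 fell and none rose (median -0.76). Tfrc, the transferrin receptor through which erythroblasts take up iron, was 363, 262, 346 and 317 CPM in controls and 117, 122, 86.6 and 128 CPM in knockouts (log2 fold change -1.51, SE 0.13, edgeR adjusted p = 2.65e-06). Gypc, which links the skeleton to the membrane, fell by 1.39 (SE 0.15) on the log2 scale. All 12 genes of globin and heme synthesis fell (median -1.34), with the smallest p for Urod (-0.86 (SE 0.084)) and Fech (-0.95 (SE 0.097)). Of 9 organelle clearance genes, 4 fell and none rose (median 0.037). They included the mitophagy receptor gene Bnip3l (-0.51 (SE 0.089)) and Ube2o, a ubiquitin enzyme of reticulocytes (-1.27 (SE 0.18)).

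Of 14 further transcription factors on the erythroid list, 5 fell and none rose, with a median of -0.42. Sox6 (-1.11 (SE 0.16)), which silences embryonic globin, and E2f4 (-0.91 (SE 0.12)), a cell-cycle factor needed for erythroid expansion, had the smallest p. The progenitor factors Gata2 (-0.05 (SE 0.26), edgeR adjusted p = 0.923) and Runx1 (-0.16 (SE 0.16), 0.524), named after their values were seen, did not pass. Around the receptors, the 11 matched genes of EPO and KIT signalling gave 4 that rose and 2 that fell (median 0.11). Bcl2l1, the survival gene downstream of the erythropoietin receptor, was 92.1, 90.97, 88.8 and 104 CPM in controls and 56.5, 64.5, 59.7 and 68.3 CPM in knockouts (log2 fold change -0.59, SE 0.089, edgeR adjusted p = 1.43e-04). Socs3, a feedback inhibitor of cytokine receptors, rose by 0.77 (SE 0.18). Kitl, which encodes the KIT ligand and was named after its values were seen, fell from 16.6, 14.1, 18.9 and 13.7 CPM to 9.34, 12.02, 11.2 and 10.3 CPM (log2 fold change -0.57, SE 0.15, edgeR adjusted p = 0.0145), opposite to its receptor. The counts of these lists are read only beside the shares of all genes called lower (11.4%) and higher (9.27%).

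Proliferation genes were lower in the same livers. All 10 fell, with a median of -1.24, with the smallest p for Rrm2 (-1.91 (SE 0.11)) and Mcm6 (-1.24 (SE 0.096)), and they summed to 763 to 1115 CPM in knockout and 1982 to 2575 CPM in control livers. Erythroblasts divide, as hepatocytes do at this age, and the share of either in these values was not tested. The hepatocyte genes Alb (-1.08 (SE 0.11)) and Ttr (-0.97 (SE 0.099)) also fell, while the other 4 hepatocyte markers did not pass the test.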

How the data were processed

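RNA from whole liver was sequenced, 1 library per pup, for 4 knockout and 4 control pups, grouped by labelled genotype. The deposited values are raw read counts, in whole numbers, for each Ensembl identifier. The authors aligned reads with Rsubread 2.20.0 in R 4.4.1, per the labels' protocols, to a build written there as GRMm38 and read here as GRCm38. Counting used featureCounts, per the submitters' processing notes. Neither annotation, strand setting nor handling of multi-mapped reads is given in the sources used here, and overlapping genes are therefore uncertain.

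Symbols, positions and exon lengths came from GENCODE M21 (GRCm38), which matched 48058 of 48440 genes. Counts were tested with edgeR 4.0.16 in R 4.3.3 (limma 3.58.1). The filterByExpr filter (minimum count 10, minimum total count 15) left 18274 genes. Libraries were scaled by TMM, and knockout was compared with control by the quasi-likelihood test (robust), adjusted by Benjamini-Hochberg over all genes tested at a threshold of 0.05. The SE is the absolute log2 fold change over the square root of F. The CPM values use TMM library sizes, and log2 CPM a prior count of 2. Library pairs within a group gave chi-square values of 12.9 to 24.0 per degree of freedom, so none was counted as a repeat of another.

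The members and lists were chosen with earlier results of these data known. All matched members may be named, as may Myo5b and the 2 tested genes of lowest p from every other list. Gata2, Runx1, Kitl and Mpo were picked after their values were seen. Some genes of these lists are not reported here by name. Alternatives were scaling by median ratio, upper quartile or library size alone, other low-count filters, DESeq2 1.42.0, limma-voom (quality weights), dispersion without the robust option, Y-linked expression as a covariate, omission of the 10 genes above 1% of counts, a narrower set of early regulators, and each library left out in turn. Figures were drawn with matplotlib 3.10.9.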

Additional observations from a re-analysis of the deposited data

Results flagged for a closer look

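In 5 of 72 sets of 4 values (each member and Myo5b in each genotype), 1 liver stood far from the other 3, where chance alone would give about 1 set in 20. Knockout 278 was the high one in 4 of them. It had 13.1 CPM of Klf1, 23.4 CPM of Add2, 33.4 CPM of Dmtn and 14.5 CPM of Rhag, and the gap to the next knockout was 0.910, 0.910, 0.920 and 0.832 of the range among knockouts. Without knockout 278 the log2 fold changes of these genes were -2.76 for Klf1, -2.43 for Add2, -2.29 for Dmtn and -2.26 for Rhag. Control 279 was the high one for Car1, at 11.04 CPM, with a gap of 0.871 of the control range. Without control 279 the log2 fold change of Car1 was -0.27.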

How the results depend on the processing

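Over the 18 alternatives, all 630 values of single members kept their direction and 622 kept their call. The other 8 were Fam210b, whose call was lost with no low-count filter (-1.67), with the Y-linked covariate (-1.64), without knockout 276 (-1.65) or 277 (-1.80), and without control 279 (-1.66), 280 (-1.57), 281 (-1.68) or 282 (-1.75). Leaving out 1 library gave 32 to 33 members called lower, medians of -1.59 to -1.32 for regulators and -2.17 to -1.74 for late genes, and a late minus regulator difference of -0.58 to -0.39. With the 5 early regulators in place of all 9, 4 fell, their median was -0.71 and the difference from late genes was -1.19. With library size alone as the scaling, 2300 genes were higher and 1696 lower (57.6% of calls higher), against 1694 and 2088 (44.8%) with TMM. No paired analysis was possible because the genotypes share no replicate number. Icam4, Cldn13 and Gfi1b rest on the fewest counts, with 17 to 103 per knockout library.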
